A study of Rattus norvegicus with 2 samples.

Results

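The genes described here encode 10 proteins of the synaptic vesicle: the synapsins Syn1, Syn2 and Syn3, the synaptotagmins Syt1, Syt4 and Syt11, the glycoproteins Sv2a and Sv2b, synaptophysin (Syp) and synaptogyrin 1 (Syngr1). They were chosen by name, and every row of the deposited table of N6-methyladenosine (m6A) regions whose gene name was one of them was taken. This gave 9 of the 8512 listed regions. They lay in 5 of the 10 genes, namely Syt1, Syn1, Syn2, Sv2a and Syngr1, and Syn3, Syp, Syt4, Syt11 and Sv2b had no listed region.

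The cells were hippocampal neurons cultured from newborn Sprague-Dawley rats, given Ara-C on day 7 in vitro and lead acetate (PbAc) for 48 h from day 12. Methylated RNA was immunoprecipitated with an antibody and sequenced beside the starting RNA. The 2 libraries used here, 1 immunoprecipitate (IP) and 1 input, both came from lead-exposed cultures, so nothing below measures what lead did. The labels differ on the dose, given as 5 mM in the sample labels and 5 µM in the design text, and on the last day of exposure, day 13 or day 14 in vitro. The labels do not say how many animals or cultures each library pooled.

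Synaptic vesicles store neurotransmitter in the nerve terminal and release it when calcium enters. Synapsins coat the vesicle, tie it to its neighbours and to actin, and let go when they are phosphorylated. Synaptotagmin 1 is the calcium sensor of fast release, SV2 proteins are sugar-bearing transporter-like proteins that bind it, and synaptophysin and synaptogyrin are related membrane-spanning proteins of the vesicle. The m6A mark is placed on adenosines of nascent RNA by a methyltransferase complex, and reader proteins that bind it are known to act on RNA splicing, decay and translation.

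Fold enrichment below is the linear ratio of IP over background that the authors' peak caller gave each region, and the score is 10 times the −log10 of the caller's p. Both are the authors' values. The deposited false discovery rate was 100% in every row, so it gave no support to any region, whatever its p. With 1 library of each kind there was no replicate check, and no test between groups was possible. Library depth is unknown because the table gave no counts of reads. A gene can be missing because its RNA was scarce, because it was not methylated, or because a called peak was not kept in the table. The numbers in the peak names reach at least 13602, against 8512 rows. The table does not separate these reasons. In such bulk RNA, fewer cells of a type and less RNA per cell cannot be told apart either. Of 10 neuron markers, 6 had a listed region (Gap43, Nefm, Snap25, Mapt, Map2 and Rbfox3), as had 2 of 8 astrocyte, 1 of 8 oligodendrocyte-lineage, 2 of 8 microglial and 1 of 8 vessel and fibroblast markers. Over all protein-coding genes the share was 17.3%, near that of the non-neuronal lists. These counts describe where enriched regions lay and are no measure of cell numbers.

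Of the 10 vesicle genes, 5 had a listed region, where 17.3% of the 23154 protein-coding genes of the current RefSeq table did. Among the 10 neuron markers, 6 did. Shares of coding genes, here and elsewhere, count every coding gene of that RefSeq table, with no regard to its expression in these cultures. The fold of the 9 regions ran from 5.10 to 12.28 with a median of 7.36. Over all listed regions the median was 5.90, with quartiles of 4.41 and 8.45. Fold enrichment reached 10 in 2 member regions, both in Syt1, and in 17.3% of all listed regions. By p the members split: 5 of the 9 regions, in Syt1, Syn1 and Syn2, had a p of at most 1e-10, which 32.9% of all listed regions reached. The Sv2a region lay between, and the remaining 3 regions, 1 each in Syt1, Syn1 and Syngr1, had p values above 0.05. The limits of 0.05 and 1e-5 were each met by the same number of member regions, 6 of 9, beside 71.8% and 45.8% of all. In terms of genes, 4 of the 10 members had a region at 0.05 or at 1e-5 and 3 at 1e-10, beside 13.4%, 9.08% and 7.01% of coding genes. The members were chosen with earlier results of this table known, so these shares are descriptions.

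**Figure D1:**
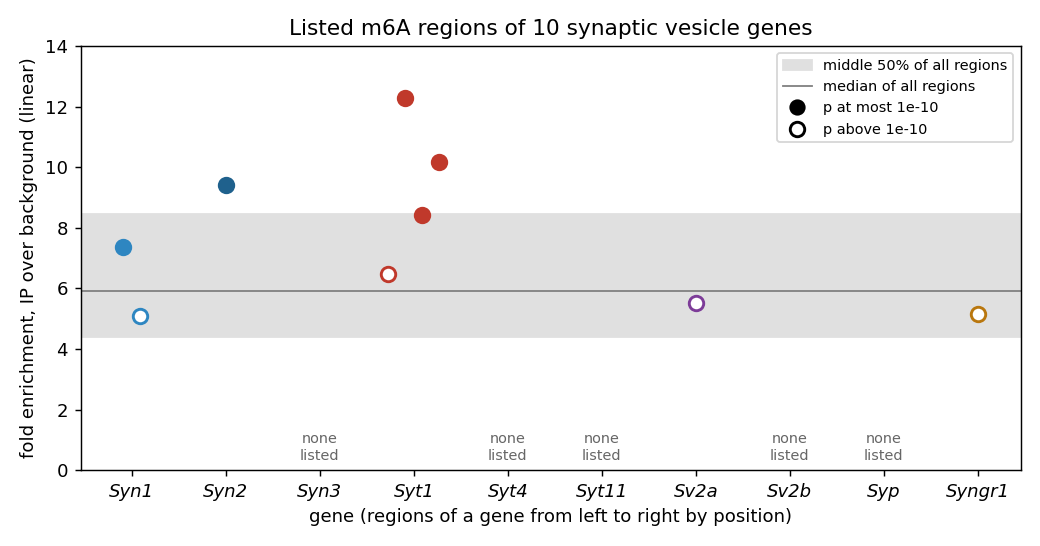
Fold enrichment (linear axis) of each listed region of the 10 genes, as points ordered by position within a gene, filled where p was at most 1e-10 and open where it was larger. The grey band and line are the quartiles (4.41 and 8.45) and the median (5.90) of all 8512 regions. Syt1 and Syn2 have points above the band, the points of Syn1, Sv2a and Syngr1 lie inside it, and 5 genes have none.

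Syt1, the calcium sensor of fast transmitter release, carried the most regions of the 10 genes and the highest fold among them. Its 4 regions, all tied to the transcript NM_001033680, lay on chromosome 7. In order of position, the first spanned bases 50243612 to 50243796 (185 bases) with a fold of 6.49. The second spanned 50447816 to 50447877 (62 bases) with a fold of 12.28, and the third spanned 50530507 to 50530607 (101 bases) with a fold of 8.41. The fourth spanned 50650408 to 50650569 (162 bases) with a fold of 10.16. The last 3 were supported by high scores (852.67, 706.15 and 274.87), while the score of the first was 3.45. By the caller that score is a p of 0.452. Syt1 thus had 3 enriched regions with small p and 1 with almost no support from the caller's p. Of all listed genes, 13.1% had 4 or more regions.

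The 2 best-scored Syt1 regions were shorter than the lower quartile of 112 bases. Only 4.48% of listed regions were shorter than the 62-base region, yet its fold exceeded that of 89.1% of them and its score that of 92.2%. Among the 402 regions of 62 bases or fewer the median fold was 5.63, and 37 of them (9.20%) reached the 12.28 of Syt1. The first Syt1 region was unusual in the other way: of the 217 regions with a score of 3.45 or lower, whose median fold was 3.68, only 3 reached its fold of 6.49, itself included.

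The 4 regions of Syt1 were far apart. Gaps of 204019, 82629 and 119800 bases separated them, and together they spanned 406958 bases of the genome while covering 510. Across the 245 genes with 4 regions, all on 1 chromosome, the median span was 23563 bases, and 6 had a larger span than Syt1. The largest gap, and with it the span and this placing, depend on the first region, whose p by the caller was 0.452. Regions of 1 transcript that lie this far apart in genome coordinates can still be close in the spliced RNA, and the place of each region in the transcript was not analysed here. Peak numbers rose with position on all 21 chromosomes. From the first to the last Syt1 region, 5 of 9 peak numbers are not in the table, and no region of another gene was listed there. Absent numbers are not particular to Syt1, as the second Syn1 region has number 13602 in a table of 8512 rows.

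**Figure D2:**
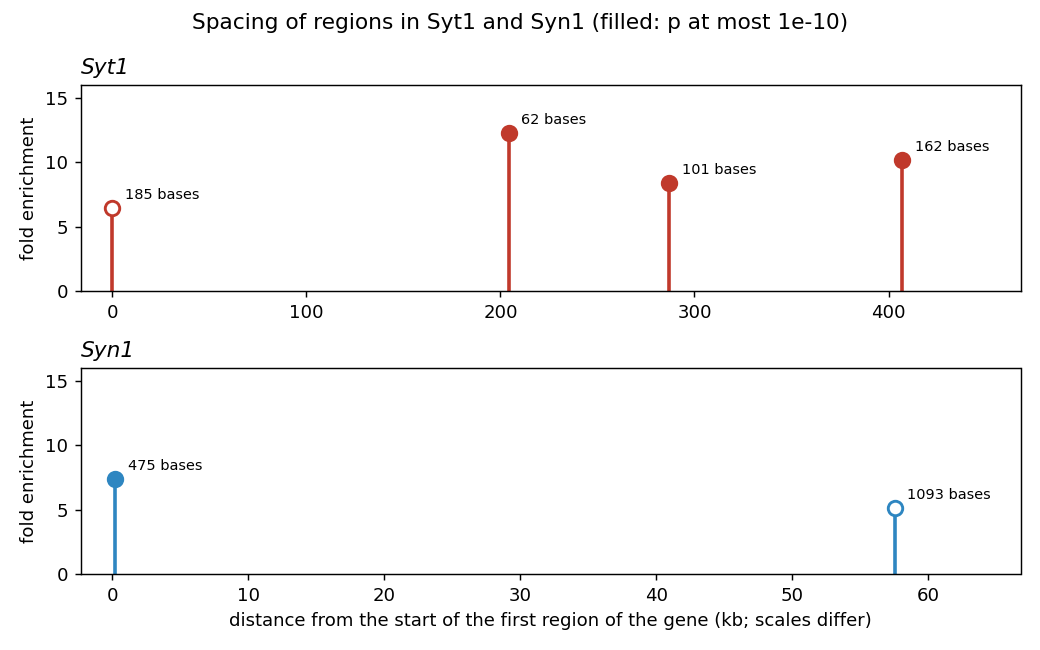
Fold enrichment (linear axis) of the regions of Syt1 (top) and Syn1 (bottom) against distance in kb from the start of the gene's first region, with the length of each region beside its point, filled where p was at most 1e-10. In Syt1 the weakly supported region stands 204019 bases from the next one, and in Syn1 the weakly supported region is the 1093-base one.

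The other synaptotagmins among the 10 genes, Syt4 and Syt11, had no listed region. Both belong to the synaptotagmins whose first calcium-binding domain is known not to bind calcium. Neither appeared under another name or gene ID. Of 14 further synaptotagmin genes, 1 was listed, beside 17.3% of coding genes: Syt7, a high-affinity calcium sensor of slower release, had 1 region of 104 bases with a fold of 3.36 and a score of 4.23. Of the 17 synaptotagmins, 1 (Syt1) had a region at a p of at most 1e-10, a share near the 7.01% of coding genes.

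Among the synapsins, Syn2 had the stronger region. Syn1 covered more bases in all (1568 against 504), but 475 when its region with a p above 0.05 is left out. The Syn2 region (chromosome 4, bases 210326340 to 210326843, transcript NM_019159) was 504 bases long with a fold of 9.40 and a score of 532.48, a p of 5.65e-54. Its fold exceeded that of 80.0% of all listed regions and its score that of 88.7%. Syn1 had a first region on chromosome X (bases 2136336 to 2136810, transcript NM_019133) of 475 bases, with a fold of 7.36 and a score of 210.17, a p of 9.62e-22. Syn3, the synapsin known for expression early in neuronal development, had no listed region. The best-supported region of each of the 2 listed synapsins was thus close to the other in length, and the fold of Syn2 was the higher.

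The second Syn1 region lay 56490 bases beyond the first, at bases 2193301 to 2194393. It was 1093 bases long, longer than 96.9% of all listed regions, but its fold was 5.10 and its score 4.80, a p of 0.331. Of the 266 regions at least as long, 61 (22.9%) had a p above 0.05, and their median score was 57.1. The 2 Syn1 regions spanned 58058 bases, and 92 of the 894 genes with 2 regions, both on 1 chromosome, had a larger span. The synapsin genes are known to host tissue inhibitor of metalloproteinase genes in their introns. In the RefSeq gene table of assembly GRCr8, Timp1 lies inside Syn1, Timp4 inside Syn2 and Timp3 inside Syn3, Araf overlaps Syn1 in part, and Brcc3dc lies inside Syt1. In all, 7 coding genes overlapped a member there, and 0 of them had a listed region, beside 17.3% of all coding genes. A region that the authors assigned to the host gene would not count for them. The deposited table has no strand column, so the regions named for Syn1, Syn2 and Syt1 rest on the authors' assignment to a transcript.

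Sv2a, the SV2 protein bound by the antiepileptic drug levetiracetam, had 1 region on chromosome 2 (bases 217811917 to 217812591, transcript NM_057210). It was 675 bases long with a fold of 5.53 and a score of 67.38, a p of 1.83e-07. Its length exceeded that of 92.6% of listed regions, whereas its fold exceeded that of 44.6%. The nearest listed region of another gene, in the deubiquitinase gene Otud7b, was 27039 bases away with a fold of 8.51. Sv2b, its close relative, had no listed region. Sv2c, an SV2 gene outside the 10, was listed with 1 region at a fold of 11.08 and a score of 618.41, above both values of Sv2a.

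Of the synaptophysin-related proteins, Syngr1 had 1 region and Syp none. The Syngr1 region (chromosome 7, bases 121301106 to 121301255, transcript NM_019166) was 150 bases long with a fold of 5.14 and a score of 12.46, a p of 0.0568. It was the single region of its gene, so Syngr1 was the 1 listed member whose entry rested wholly on a p above 0.05. Synaptophysin, a very abundant vesicle membrane protein that binds synaptobrevin, had no listed region under its name, its gene ID or a synonym.

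The listed members differed in region length. Regions of at least 400 bases numbered 4 of 9, in Syn1, Syn2 and Sv2a, beside 14.4% of all listed regions. This limit was chosen after the table was seen, and 1 of the 4, the longer Syn1 region, had a p above 0.05. The 4 Syt1 regions and the Syngr1 region lay between 62 and 185 bases, near or below the median of 161 over all regions (quartiles 112 and 248). In bases covered, Syn1 had 1568, Sv2a 675, Syt1 510, Syn2 504 and Syngr1 150. Over regions with a p of at most 0.05 alone, Sv2a had 675, Syn2 504, Syn1 475 and Syt1 325. The longest region had the lowest fold of the 9 and the shortest the highest. With 9 regions of 5 genes, 4 of them of 1 gene, this is a description of the rows.

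**Figure D3:**
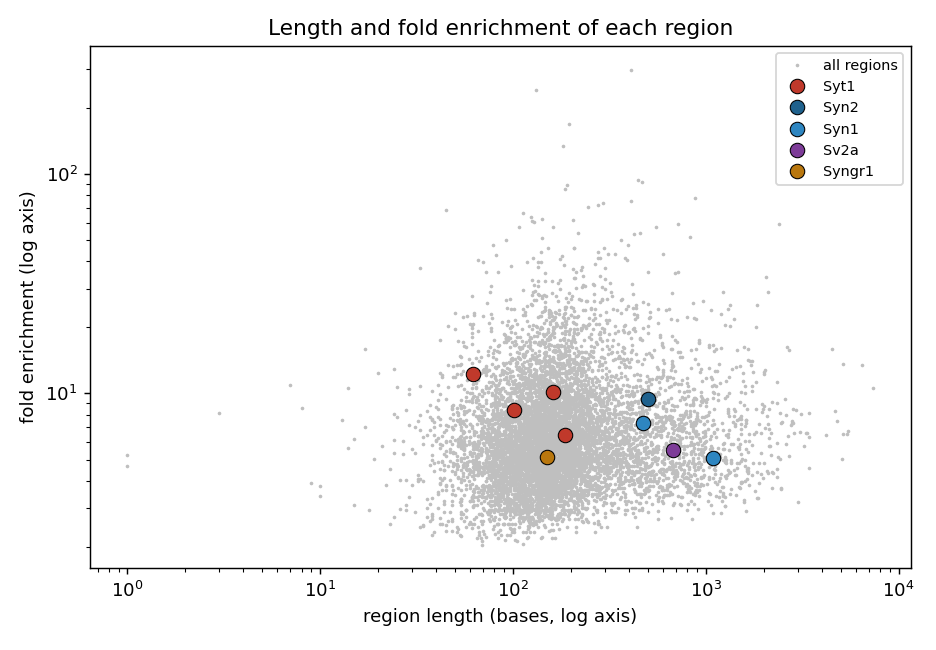
Length in bases and fold enrichment of every listed region (grey; both axes logarithmic) and of the 9 regions of Syt1, Syn2, Syn1, Sv2a and Syngr1 (coloured). The Syt1 and Syngr1 regions lie at 62 to 185 bases and those of Syn1, Syn2 and Sv2a at 475 to 1093 bases, all inside the cloud of all regions.

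By the highest fold of each gene, the order was Syt1 (12.28), Syn2 (9.40), Syn1 (7.36), Sv2a (5.53) and Syngr1 (5.14). The differences between neighbours have no replicate error to be set against. Among the 4212 gene names in the table, the highest fold of Syt1 exceeded that of 83.5%, Syn2 72.6%, Syn1 57.3%, Sv2a 36.2% and Syngr1 30.4%. The median highest fold of the 5 listed members was 7.36, beside 6.62 over all listed genes. Because a high value is likelier where a gene has several regions, the members were also set beside genes with the same number. Syt1 stood against a median of 10.46 in genes with 4 regions, Syn1 against 7.18 in genes with 2, and Syn2, Sv2a and Syngr1 against 5.45 in genes with 1. Within those classes Syn2 exceeded 84.3% of genes, Syt1 61.9%, Syn1 52.4%, Sv2a 51.2% and Syngr1 44.1%. Syn2, not Syt1, was then the highest placed. Of the 5 listed members, 2 had 2 or more regions, as had 44.9% of all listed genes.

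The genes most like Syt1 in region number and highest fold were Fam168a (12.31), Mdn1 (12.35), Mapk8ip3 (12.19) and Ppfia3 (12.17), each with 4 regions. Their highest scores, 257.74, 192.83, 429.22 and 705.17, were all below the 852.67 of Syt1. The genes most like Syn2, each with 1 region, were Fkbp1a (9.40), Rcn1 (9.37), Prelp (9.36) and an entry at 9.40 known only by an Ensembl gene ID. Their scores ranged from 104.37 to 606.22.

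Further membrane proteins of the vesicle were listed in part. Of 23 such genes, 5 were listed (beside the 17.3% of coding genes), with 7 regions and a median highest fold of 7.11. The highest were Slc17a7, the vesicular glutamate transporter of hippocampal excitatory neurons (14.17), and Sv2c (11.08). Slc6a17, a vesicular amino acid transporter, stood at 7.11, Atp6v0a1, a subunit of the vesicular proton pump, at 7.03 and Scamp1, a secretory carrier membrane protein, at 6.77. Of the 23, Slc17a7 and Sv2c had a region at a p of at most 1e-10, a share near the 7.01% of coding genes.

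Of 19 genes for kinases that phosphorylate synapsins and for proteins of vesicle recycling, 10 were listed, beside 17.3% of coding genes. They had 33 regions and a median highest fold of 11.36, beside 6.62 over all listed genes. The median was 7.18 in genes with 2 regions and 10.46 in genes with 4. The genes of this list were not set beside genes with the same number. In 9 of them a region met the limit of 1e-10, beside 7.01% of coding genes. The endocytic scaffold Itsn1 had 8 regions with a highest fold of 31.22, and Prkaca, a catalytic subunit of protein kinase A, had 2 regions up to 22.27. The endocytic adaptor Amph reached 17.28, and the calcium/calmodulin-dependent kinase subunits Camk2b and Camk2g reached 13.39 and 11.94. Sh3gl2, the gene of the endocytic protein endophilin, reached 10.78. All 6 of these highest folds exceeded the 9.40 of Syn2, and 4 of them the 12.28 of Syt1. These lists differ from the 10 genes in size and in how they were put together, and the difference between them was not tested.

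**Figure D4:**
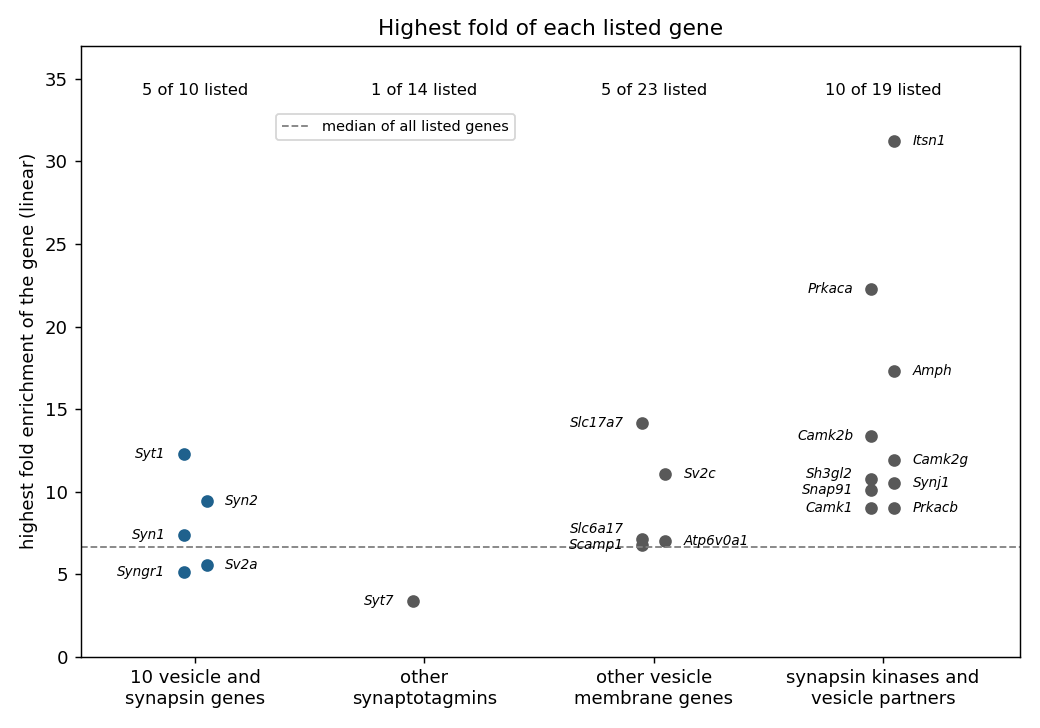
Highest fold enrichment (linear axis) of each listed gene among the 10 vesicle and synapsin genes and 3 other lists, 1 point per gene, with the number listed of each list above it and the median of all listed genes (6.62) as a dashed line. Points of the kinases and vesicle partners reach 31.22, and those of the 10 genes reach 12.28.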

How the data were processed

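The source was 1 deposited table of m6A regions from 2 lead-exposed libraries, IP and input, grouped by sample title. An m6A immunoprecipitation kit and a directional library kit were used, per the labels' protocols. Tools named in the submitters' processing notes are HISAT2 2.0.4, STAR and cutadapt 1.9.3. The peak names point to the MACS caller, per the file headers. Its thresholds and the genome build are not given in the sources.

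Fold enrichment was deposited as a linear ratio. Each p-value is held in the deposited table as a score, repeated in a second column in all 8512 rows. The deposited false discovery rate, a percent, was 100 in every row and was not used. Printed starts are 1 higher than deposited, because end minus start gave the deposited length in all 8512 rows. Values were counted and ranked with Python 3.11.15, pandas 2.3.3 and numpy 2.4.6 and drawn with matplotlib 3.10.9. The functions were tested on simulated data.

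All 10 members matched a symbol of the RefSeq table of GRCr8, which was used for names, chromosomes and which genes overlap. Its coordinates were not set against those of the regions. The 5 listed members lay on the chromosome given there. Members and lists were chosen with earlier results of these data known. Named genes were all members, up to 6 listed genes of each other list with the highest fold, and, for Syt1 and Syn2, the 2 genes just above and below in highest fold at equal region number. Otud7b, a neighbour of Sv2a, and the genes overlapping members were named outside this rule, after the table was seen, as were those of the annotation groups. The limit of 400 bases was also chosen then. A gene of the list of kinases and vesicle partners is not reported here. Sequences of the regions were not analysed here.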

Additional observations from a re-analysis of the deposited data

How the results depend on the processing

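Limits on p changed the results most. At a p of at most 0.05 or 1e-5, 4 members with 6 regions were left, 1 of them with 2 or more regions, and the median highest fold was 8.38. At 1e-10, 3 members with 5 regions were left, 1 with 2 or more, and the median was 9.40. The median was 6.23 with the mean fold per gene and 6.445 without Syt1. In these cases the cause lies in the smaller set of regions or genes, or in the summary used. Among genes with the same number of regions, the placing moved to 61.9% for Syt1, 84.3% for Syn2, 52.4% for Syn1, 51.2% for Sv2a and 44.1% for Syngr1. A minimum fold of 5, a minimum length of 100 bases (8 regions left), merging of regions within 200 bases, and matching by current symbol or synonym left 5 members, 2 with 2 or more regions and a median of 7.36, as did the median over all member regions for the last value. The minimum fold and the merging could change nothing here. The lowest member fold was 5.10, and the smallest gap between regions of 1 member was 56490 bases. No paired analysis was possible because each group held 1 library. Depth, and with it what a missing region means, is unknown.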

Other observations

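In the deposited annotation, 17 listed genes carried the term for the synaptic vesicle membrane, and all 5 listed members were among them. The other 12 had a median highest fold of 8.92, beside 6.62 over all listed genes, and 8 of them had 2 or more regions, beside 44.9% of all listed genes. Their folds were not set beside genes with the same number of regions. Amph (17.28), Rph3a, an effector of Rab3 proteins on the vesicle (16.91), and Slc17a7 (14.17) stood above Syt1. The fusion proteins Stx1a, with 3 regions up to 11.28, and Vti1a, with 6 regions up to 10.09, stood between Syt1 and Syn2. At the low end, Dtnbp1 (4.53), Syt7 (3.36) and Ica1 (2.57) had highest scores of 4.41, 4.23 and 6.81. These genes were selected by an annotation term after the table had been seen, and no test was made.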
